A study of Rattus norvegicus with 6 samples.

Results

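The genes described here encode 10 proteins that release, take back and expel calcium in heart muscle cells: Ryr2, Casq2, Trdn, Jph2, Atp2a2, Pln, Hrc, S100a1, Slc8a1 and Camk2d. They were chosen by gene symbol, all 10 had a row on the array, each had 1 row, and they stand among 15037 named genes and 23188 tested rows. RNA from whole hearts of Sprague-Dawley rats, male and 10 weeks old by the surgical protocol, was measured on 6 single-colour Clariom S Rat arrays, 2 per group. The groups were normal hearts, hearts under TAC (a silk ligature around the transverse aorta, which narrows it and loads the left ventricle), and TAC-R hearts, released from TAC. The labels name no genetic change or drug; they leave unsaid whether the normal rats had sham surgery, how long TAC or release lasted, and whether each array is a separate animal. A p-value here thus reflects array-to-array spread alone, part or all of which could be technical.

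Each heartbeat begins when calcium entering through surface channels opens ryanodine receptors, the calcium release channels of the sarcoplasmic reticulum, an internal calcium store. Relaxation follows when the SERCA pump returns calcium to the store and the sodium-calcium exchanger carries the rest out of the cell. Phospholamban restrains the pump until it is phosphorylated, and altered expression or phosphorylation of these proteins is a well-known feature of failing heart muscle.

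The values are deposited log2 signals, which stop at a ceiling of 19.93. The labels' extraction field speaks of cultured fibroblasts, but of 12 heart muscle markers 11 had a row and all 11 exceeded the 95th percentile of the negative control rows on all 6 arrays, with Actc1, Myl3 and Mb at the ceiling. Of 6 skeletal muscle markers, 5 lay below that percentile on every array. Nppb, the natriuretic peptide gene that pressure load is known to raise, was 16.05 and 15.72 on the normal arrays, 13.57 and 13.88 on the arrays labelled TAC, and 16.91 and 17.23 on the TAC-R arrays. It was thus 4.47-fold lower on the arrays labelled TAC than on those labelled normal (limma, adjusted p = 0.0118), the opposite of the known response. Myh7, the slow myosin heavy chain gene that load also raises in rodents, was 17.87 and 17.76 on the TAC arrays and 19.91 or 19.93, at or near the ceiling, on the other 4, so it too was lower under TAC (limma, adjusted p = 0.00627). Every direction below follows these labels as given. In bulk tissue, fewer cells of a type and less RNA per cell cannot be told apart.

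None of the 8 calcium handling genes that could be measured passed the test in any comparison, and Atp2a2 and Pln, at the ceiling on all arrays, could not be compared. The largest difference was in Ryr2, 1.62-fold lower under TAC than in normal hearts, followed by Camk2d at 1.50-fold and Slc8a1 at 1.39-fold. Their arrays did not overlap between the 2 groups, which held for 43.3% of all rows, and neither did those of Casq2 and Jph2. Casq2, Trdn, Hrc and S100a1 differed by at most 1.10-fold, and Jph2 was 1.19-fold higher.

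**Figure D1:**
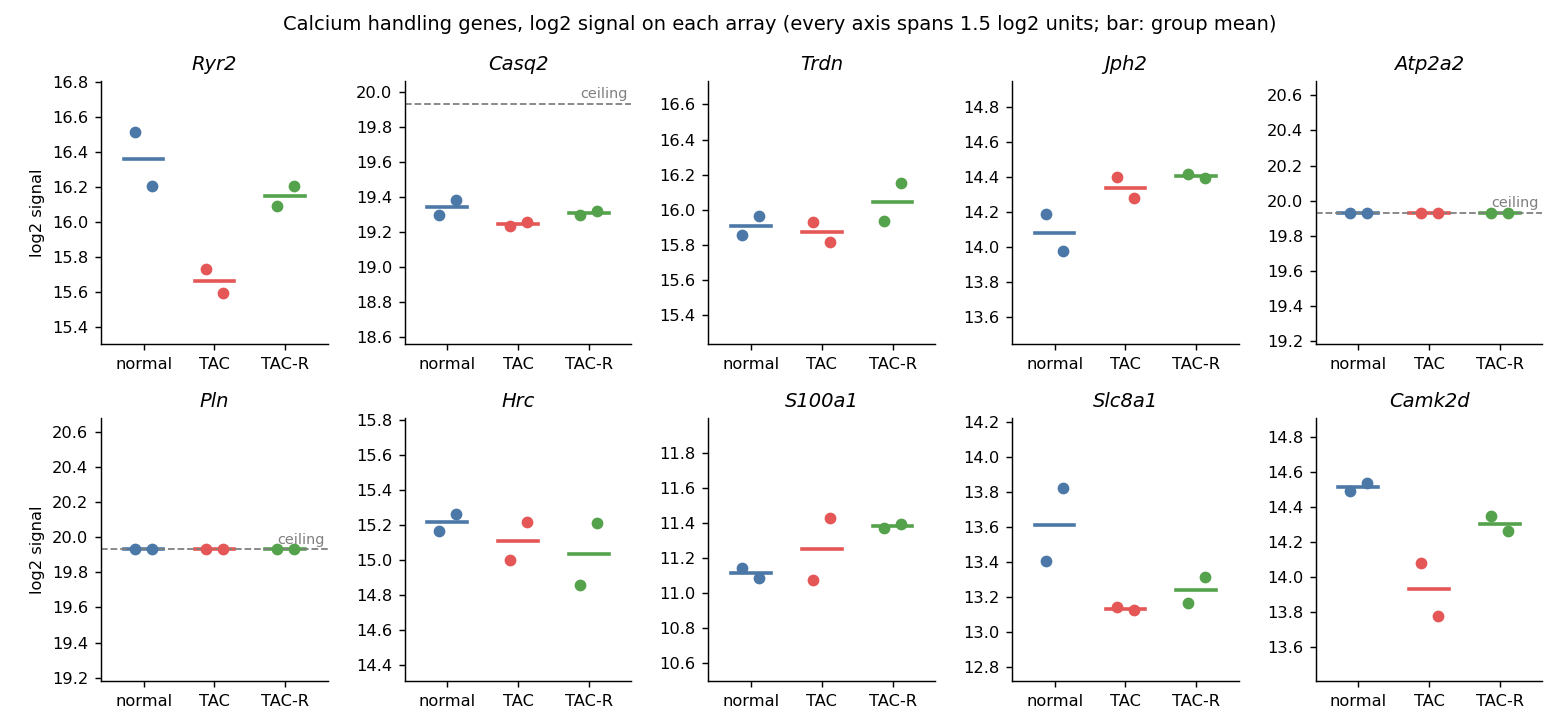
Log2 signal (vertical axes, each spanning 1.5 units) of the 10 calcium handling genes on the 2 arrays of each group (horizontal axes), points for arrays and bars for group means. Ryr2, Casq2, Slc8a1 and Camk2d are lowest on the TAC arrays, while Atp2a2 and Pln sit at the ceiling of 19.93 throughout.

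The promoter windows of Ryr2 and Casq2 are shown because their products act in 1 complex while Ryr2 had the largest difference and Casq2 a small one. They are RefSeq sequence of build GRCr8, plus strand, from 250 bases before to 50 after the annotated start, at chr17:63081277-63081576 and chr2:192214306-192214605. Capitals mark the GC box (GGGCGG on either strand, here read as its complement) in Ryr2 and the MEF2 site in Casq2.
Ryr2: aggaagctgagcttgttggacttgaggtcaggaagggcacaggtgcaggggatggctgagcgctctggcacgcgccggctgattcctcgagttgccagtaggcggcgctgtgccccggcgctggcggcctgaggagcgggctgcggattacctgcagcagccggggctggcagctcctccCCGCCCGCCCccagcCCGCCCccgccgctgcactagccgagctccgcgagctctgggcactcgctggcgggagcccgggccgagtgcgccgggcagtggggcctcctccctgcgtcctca
Casq2: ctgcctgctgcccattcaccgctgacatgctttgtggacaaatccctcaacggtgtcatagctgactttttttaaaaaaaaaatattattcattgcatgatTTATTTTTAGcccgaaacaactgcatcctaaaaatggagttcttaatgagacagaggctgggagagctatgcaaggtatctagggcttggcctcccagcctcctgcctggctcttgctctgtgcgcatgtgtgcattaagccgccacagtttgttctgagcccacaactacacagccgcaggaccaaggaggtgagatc
The Ryr2 window holds 3 GC boxes, of which 2 overlap, and is 73% G and C, more than 95.1% of the 33469 rat promoter windows. The Casq2 window holds 1 match to the MEF2 site and is 47.7% G and C, against a median of 51.7%. A GC box occurs in 33.1% of all windows and a MEF2 site in 3.29%. Windows were found for 9 of the 10 genes, all but S100a1. Among these, Camk2d and Atp2a2 also held 3 GC boxes each, and the others held none. Casq2 alone of the 9 had a MEF2 match. These matches are letters in a window and say nothing of binding.

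Ryr2, the release channel itself, had signals of 16.51 and 16.20 on the normal arrays, 15.74 and 15.59 on the TAC arrays, and 16.09 and 16.21 on the TAC-R arrays. Both TAC arrays lay below all other arrays, and the normal and TAC-R arrays overlapped. The difference between TAC and normal was -0.69 ± 0.22 log2 units (SE of the limma fit, 95% interval -1.19 to -0.20), with an adjusted p = 0.36 over all rows. Between TAC-R and TAC it was 0.49 ± 0.22 (-0.014 to 0.99, adjusted p = 0.468), and between TAC-R and normal -0.21 ± 0.22 (-0.71 to 0.29, adjusted p = 0.778). With an intensity trend in the moderation, which lets the expected spread fall as signal rises, Ryr2 passed as lower on the TAC arrays (adjusted p = 0.0197). That fit called 0.733% of all rows, 0.194% as lower. Without 1 array the difference ranged from -0.85 to -0.54 and the adjusted p from 0.372 to 0.638.

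Casq2, calsequestrin, buffers calcium inside the store beside the channel. Its signals were 19.30 and 19.38 on the normal arrays, 19.24 and 19.25 on the TAC arrays, and 19.30 and 19.32 on the TAC-R arrays. The TAC arrays were lowest, and the difference from normal was -0.10 ± 0.20 (adjusted p = 0.91). These signals lie 0.55 to 0.69 below the ceiling. The 27 rows with means above 19 and off the ceiling had a median range over the 6 arrays of 0.17, against 0.50 for rows with means of 14 to 16. Whether the Casq2 difference is compressed by the ceiling was not tested.

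Trdn encodes triadin, which anchors calsequestrin to the channel. It was 15.86 and 15.96 on the normal arrays, 15.93 and 15.82 on the TAC arrays, and 15.94 and 16.15 on the TAC-R arrays. The TAC and normal arrays overlapped, at a difference of -0.04 ± 0.21 (95% interval -0.52 to 0.44, adjusted p = 0.971). TAC-R exceeded TAC by 0.17 ± 0.21 (adjusted p = 0.823), with no overlap between the arrays of these groups.

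Jph2 encodes junctophilin, which tethers the store to the surface membrane so that both kinds of channel face each other. It was 14.19 and 13.98 on the normal arrays, 14.40 and 14.28 on the TAC arrays, and 14.42 and 14.39 on the TAC-R arrays. Both normal arrays lay below the other 4. The differences from normal were 0.26 ± 0.21 for TAC and 0.32 ± 0.21 for TAC-R (95% intervals -0.22 to 0.73 and -0.16 to 0.80, adjusted p = 0.709 and 0.614). Of the 8 measured genes, Jph2 was the only one with both TAC arrays above both normal arrays.

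Atp2a2, the SERCA pump, and Pln, phospholamban, its inhibitor, read 19.93 on all 6 arrays. Neither a difference nor the balance of pump to inhibitor can be read from these data. Of all tested rows, 17 lay at the ceiling on every array.

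Hrc, a calcium-binding protein of the store that contacts both triadin and the pump, was 15.17 and 15.26 on the normal arrays, 15.00 and 15.22 on the TAC arrays, and 14.86 and 15.21 on the TAC-R arrays. The groups overlapped in every comparison, and the arrays of the TAC-R pair differed more from each other than the group means did. The TAC-R minus normal difference was -0.18 ± 0.23 (95% interval -0.70 to 0.33, adjusted p = 0.818).

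S100a1, a small calcium sensor that increases the activity of the pump, was 11.14 and 11.08 on the normal arrays, 11.07 and 11.43 on the TAC arrays, and 11.37 and 11.40 on the TAC-R arrays. The TAC arrays spanned the range of both other groups, so no order between TAC and either neighbour can be given. TAC-R lay above normal on both arrays, by 0.27 ± 0.22 (-0.23 to 0.77, adjusted p = 0.702).

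Slc8a1, the sodium-calcium exchanger, was 13.41 and 13.82 on the normal arrays, 13.14 and 13.12 on the TAC arrays, and 13.17 and 13.31 on the TAC-R arrays. Both normal arrays were above the other 4. The differences from normal were -0.48 ± 0.23 for TAC (-1.0 to 0.04, adjusted p = 0.509) and -0.37 ± 0.23 for TAC-R (-0.89 to 0.14, adjusted p = 0.593). TAC-R and TAC differed by 0.10, less than the normal arrays differed from each other. Jph2, likewise, had both normal arrays apart from the other 4, in the opposite direction.

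Camk2d encodes the main cardiac isoform of calcium/calmodulin-dependent kinase II, which phosphorylates the release channel and phospholamban. Its signals were 14.49 and 14.54 on the normal arrays, 14.08 and 13.78 on the TAC arrays, and 14.35 and 14.26 on the TAC-R arrays. The groups did not overlap, in the order normal, TAC-R, TAC. TAC differed from normal by -0.59 ± 0.22 (-1.08 to -0.10, adjusted p = 0.413) and TAC-R from TAC by 0.38 ± 0.22 (-0.11 to 0.87, adjusted p = 0.592). With an intensity trend the TAC minus normal difference had an adjusted p = 0.0956.

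**Figure D2:**
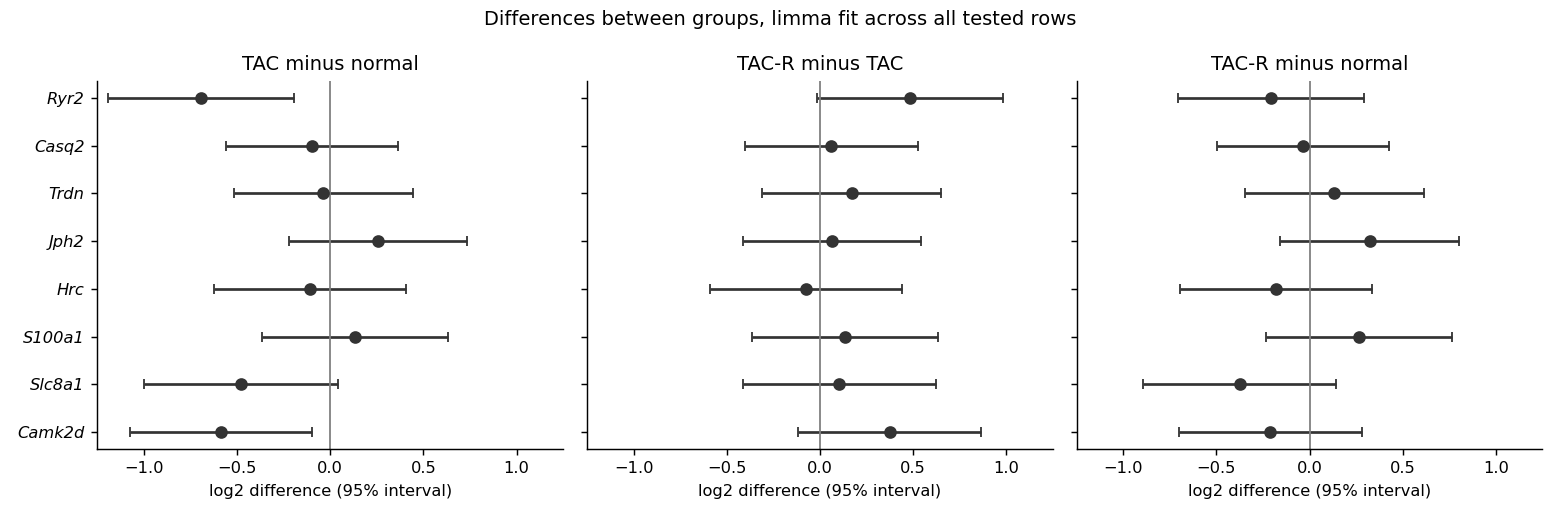
Log2 differences (horizontal axes) with 95% intervals of the limma fit for the 8 genes off the ceiling (vertical axis), in the 3 comparisons. The intervals of Ryr2 and Camk2d for TAC minus normal, -1.19 to -0.20 and -1.08 to -0.10, lie below 0 before adjustment over all rows; no adjusted p passes.

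Between TAC and normal hearts, 0 of the 8 genes passed at an adjusted p under 0.05 in limma, where 0.254% of all rows did. At an unadjusted p under 0.05, 2 were lower, Ryr2 and Camk2d, and 0 higher, where 4.89% of all rows were lower. Groups did not overlap for 5 of the 8, 4 lower and 1 higher, against 43.3% of all rows (21.3% lower and 21.9% higher). The median difference of the 8 was -0.10 log2 units, against 0.0019 over all rows off the ceiling.

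Between TAC-R and TAC hearts, 0 of the 8 passed (0.431% of all rows), and 0 had an unadjusted p under 0.05 (11.0% of all rows). Both TAC-R arrays lay above both TAC arrays for 5 genes, Ryr2, Casq2, Trdn, Slc8a1 and Camk2d, and below for 0. Of all rows 20.1% lay above, and 40.5% did not overlap. The median difference was 0.12, against 0.0049 over all rows. This comparison shares its TAC arrays with the one before, so the signs of the 2 comparisons are not independent.

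Between TAC-R and normal hearts, 0 of the 8 passed (0.0906% of all rows), and 0 had an unadjusted p under 0.05 (10.7% of all rows). Groups did not overlap for 4, Jph2 and S100a1 higher and Slc8a1 and Camk2d lower, against 40.9% of all rows (20.6% higher and 20.3% lower). The median difference was -0.11, against 0.0042 over all rows.

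The spread between arrays sets what these tests can see. The 8 genes had within-group SDs from 0.036 (Casq2) to 0.18 (Slc8a1) log2 units, all below the prior SD of 0.25 toward which the fit pulls each row. That prior is drawn from all rows, most of them dim: the median SD was 0.27 in the 16713 rows with means under 8 and 0.14 in the 436 rows with means of 14 to 16. With the intensity trend the SE of a difference for Ryr2 was 0.12 in place of 0.22.

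**Figure D3:**
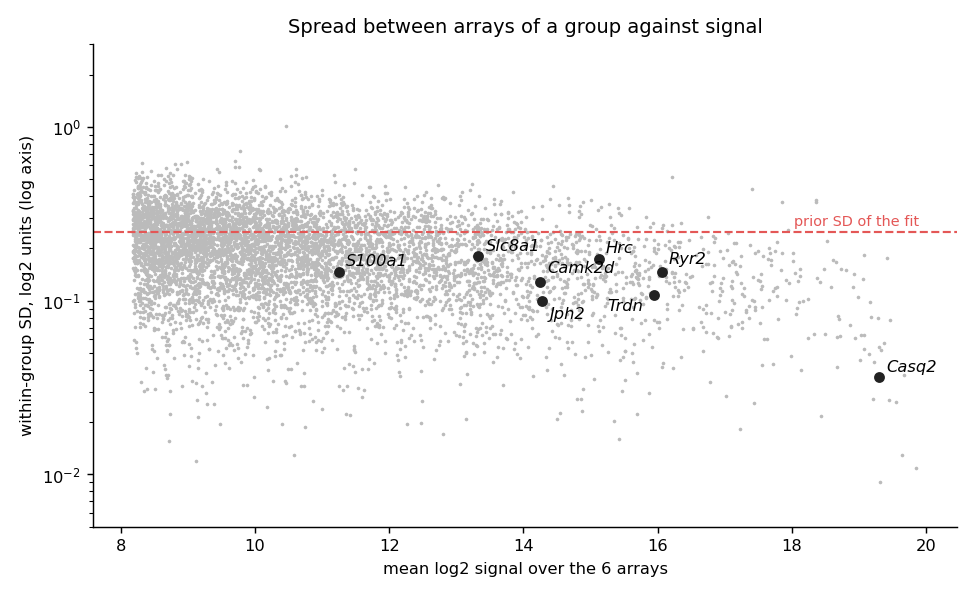
Within-group SD (vertical log axis, log2 units) against mean log2 signal (horizontal axis) for named and unnamed rows with means above the negative control limit of 8.18, the 8 measured genes in black. All 8 lie below the dashed prior SD of 0.25.

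A wider list of 81 calcium cycling genes beyond these 10 was grouped by role, and 69 had a named row, 40 of them above the negative control limit on all arrays and 19 below it on all. Between TAC and normal hearts 0 of the 69 passed, 5 were higher and 1 lower at an unadjusted p under 0.05 (5.43% and 4.89% of all rows), and the median difference was 0.07. Between TAC-R and TAC hearts 2 rose and 0 fell, Casq1 and Cacna1g (0.224% of all rows rose), and the median difference was -0.05. Between TAC-R and normal hearts 0 passed, 6 were higher and 4 lower at an unadjusted p under 0.05 (5.36% and 5.32% of all rows), and the median was 0.02.

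Casq1 encodes the calsequestrin best known from skeletal muscle. It was 11.00 and 11.12 on the normal arrays, 9.79 and 9.88 on the TAC arrays, and 11.17 and 11.12 on the TAC-R arrays. Both TAC arrays lay more than a log2 unit below the other 4, and the normal and TAC-R arrays overlapped. It rose 2.47-fold from TAC to TAC-R (1.31 ± 0.21, adjusted p = 0.043). The TAC minus normal difference of -1.22 ± 0.21 did not pass (adjusted p = 0.0746), though it did with an intensity trend (adjusted p = 0.00484). Without any 1 of the 6 arrays, the TAC-R minus TAC call was lost (adjusted p from 0.102 to 0.263), as it was with a replicate block (0.094). Its paralog Casq2 differed by 0.06 in the same comparison.

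Cacna1g, a T-type calcium channel gene of pacemaking and immature heart cells, read 5.18 and 5.10 on the normal arrays, 4.79 and 4.76 on the TAC arrays, and 6.18 and 5.96 on the TAC-R arrays. It passed between TAC-R and TAC (1.30 ± 0.21, adjusted p = 0.0451), but every array lay below the negative control limit, so the size is not measured. That call was also lost without any 1 array (adjusted p from 0.113 to 0.279) and with a replicate block (0.0953).

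**Figure D4:**
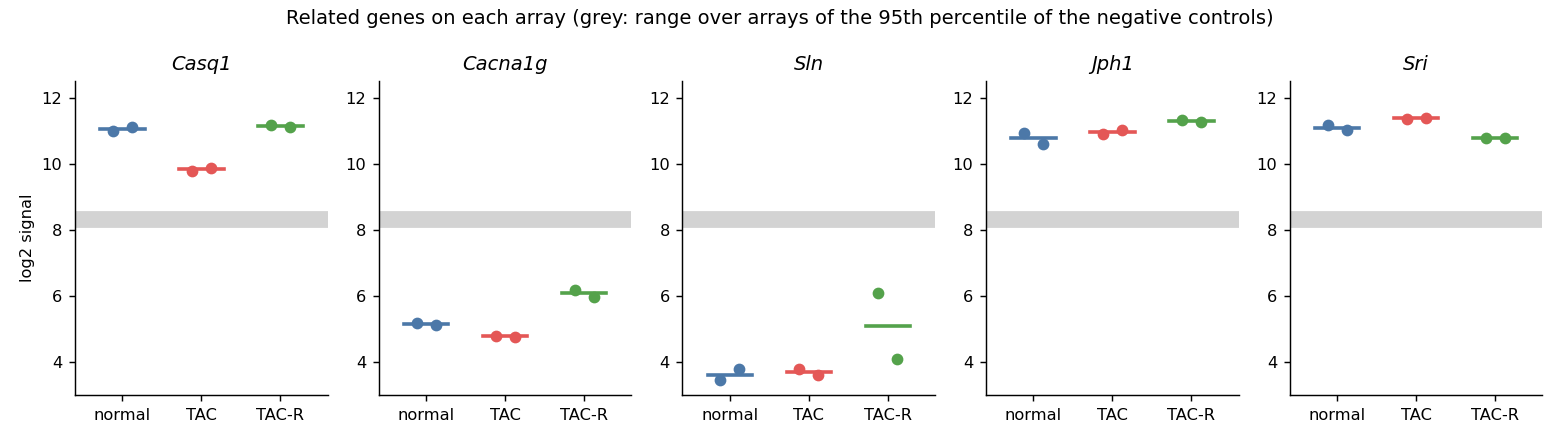
Log2 signal (vertical axis) of 5 related genes on each array by group (horizontal axes), bars for group means and a grey band for the 95th percentile of the negative controls. Casq1 is lowest on the TAC arrays and above the band throughout, while Cacna1g and Sln lie below it on all arrays.

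Among the other paralogs and partners, few had signals that could be compared. Jph1, the junctophilin best known from skeletal muscle, was 10.94 and 10.59 on the normal arrays, 10.88 and 11.02 on the TAC arrays and 11.33 and 11.28 on the TAC-R arrays, highest after release without passing (TAC-R minus normal 0.54 ± 0.22, adjusted p = 0.442). The kinase paralog Camk2g was above the limit on all arrays and Camk2a on 2 of them, with TAC minus normal differences of -0.27 and -0.38 (adjusted p = 0.746 and 0.601), against -0.59 for Camk2d. Cacna1c, the L-type channel that triggers release, differed by -0.21 ± 0.26 (adjusted p = 0.815). Sln, sarcolipin, a pump inhibitor of atria, was below the limit on all arrays, at 6.10 and 4.07 after release and at 3.44 to 3.80 in the other groups. Atp2a1, Atp2a3, Slc8a2, Slc8a3, Camk2b, Fkbp1b and Ppp1r1a were below it on all arrays too. Ryr1, Ryr3, Asph and Strit1 had no named row.

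The largest other differences, among genes with at least 1 group above the limit, stayed short of the threshold. Letm1, a protein of the inner mitochondrial membrane, and Mtm1, a lipid phosphatase, were higher on the TAC than the normal arrays by 0.64 ± 0.21 and 0.56 ± 0.21 (adjusted p = 0.383 and 0.427). Letm1 was also 0.55 higher on the TAC-R than on the normal arrays (adjusted p = 0.419). Itpr1, an inositol trisphosphate-gated release channel, and Sri, sorcin, which binds the ryanodine receptor, were lower on the TAC-R than the TAC arrays, with differences of -0.87 ± 0.24 and -0.59 ± 0.21 (adjusted p = 0.211 and 0.34). Rrad, a small GTPase that restrains the L-type channel, and Itpr1 were lower on the TAC-R than the normal arrays, with differences of -0.62 ± 0.21 and -0.66 ± 0.24 (adjusted p = 0.373 and 0.383). Itpr1 was above the limit only on the TAC arrays, so the sizes of its differences are not measured.

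**Figure D5:**
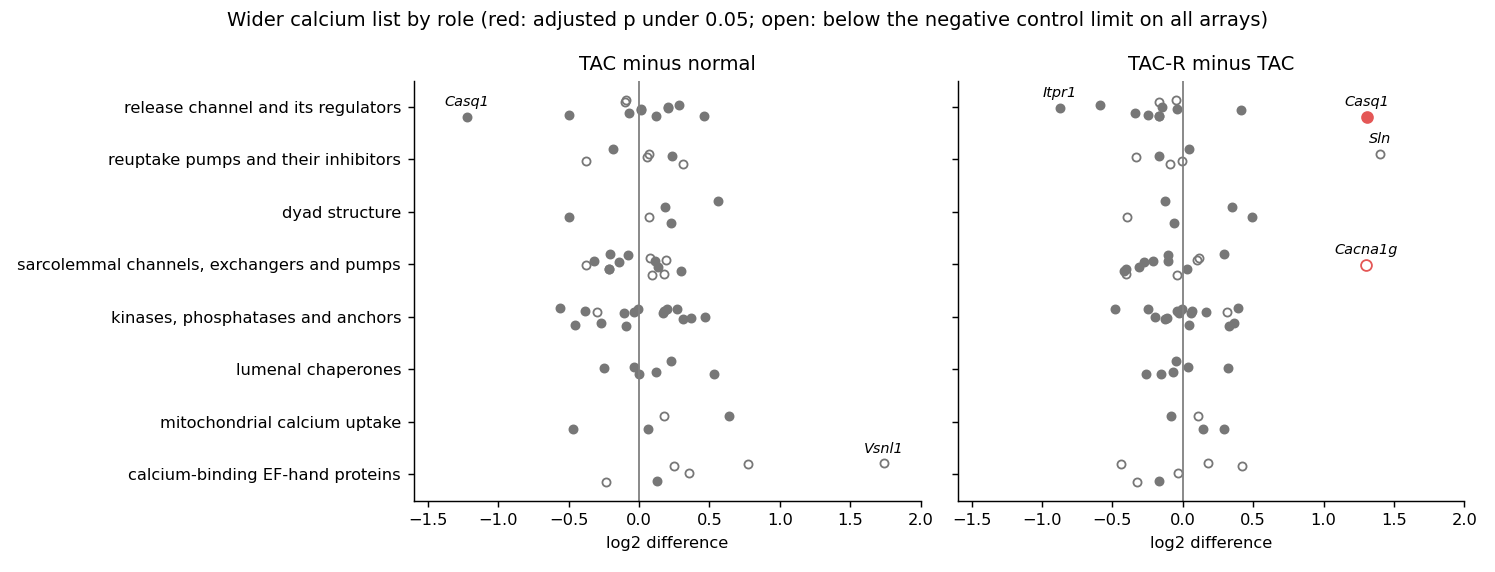
Log2 differences (horizontal axes) of the 69 genes of the wider list, 1 point a gene, by role (vertical axis), for TAC minus normal and TAC-R minus TAC. In red, at 1.31 and 1.30, are Casq1 and Cacna1g, the 2 that passed; open points are below the negative control limit on all arrays.

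Over the 6 arrays, the named rows most like Ryr2, of 4579 above the negative control limit, were Rsrc1, Txlnb, Adra1b, Ipo13 and Spag7, with Pearson correlations from 0.965 to 0.985. The points share 3 groups of 2 arrays, and in all 11 rows exceeded 0.95. Adra1b, the alpha-1B adrenergic receptor gene, had group means of 12.04, 11.44 and 11.79 in normal, TAC and TAC-R hearts, and Txlnb, a muscle taxilin gene, 16.16, 15.98 and 16.10.

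Markers of several other cell types differed between these groups. Most heart muscle markers did not pass or, at the ceiling, could not be compared. Of all rows, 0.254% passed in limma between TAC and normal hearts and 0.431% between TAC-R and TAC hearts. At an unadjusted p under 0.05, 5.43% were higher and 4.89% lower between TAC and normal. Between TAC-R and TAC, 1110 of the 23188 rows were higher and 1437 lower at that p. Of the 8 heart muscle markers off the ceiling, 0 passed in limma between TAC and normal hearts (1 lower at an unadjusted p under 0.05, median difference -0.08). From TAC to TAC-R 1 of the 8 rose, the titin-binding Tcap (1.62, adjusted p = 0.036), with a median of 0.0025 over the 8. Of these 8, Tnni3 read 19.88 on all 6 arrays, and Tnnt2 read 19.87 or 19.88, just under the ceiling. Their tests could thus hardly show a difference, yet both genes count in the 8 and in the medians. Whether signal saturation held these genes at that level was not tested. The summed signals of all 11 measured heart muscle markers were 22.74 to 22.79 log2 units over all 6 arrays. That sum includes the 3 markers at the ceiling on every array, which cannot vary, and Tnni3 and Tnnt2, which hardly varied.

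Of 6 red cell markers, 5 rose from normal to TAC, with a median difference of 2.68 over the 6, and 3 fell from TAC to TAC-R, with a median of -1.58. Their summed signals were 19.58 to 19.66 log2 units on the normal arrays, 20.78 to 20.84 on the TAC arrays and 20.33 to 20.43 on the TAC-R arrays. The sum is carried by Hba-a1, an alpha-globin gene at the ceiling on both TAC arrays, so the TAC sums could be too low. Alas2 and Slc4a1 lay below the negative control limit on both normal arrays, and Slc4a1 on both TAC-R arrays too. The sizes of their differences from those arrays are not measured, yet both genes count in the medians.

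All 8 fibroblast markers had higher means under TAC than in normal hearts, with a median difference of 0.82. None of them passed in limma, and 6 had an unadjusted p under 0.05. Of these 6, Tcf21 and Postn lay below the negative control limit on all arrays. The sizes of their differences are thus not measured, here or from TAC to TAC-R. From TAC to TAC-R 2 of the 8 fell, the collagen genes Col1a2 and Col3a1, and all 8 were lower at an unadjusted p under 0.05, with a median of -1.42. Their summed signals, carried by Dcn, the brightest row, were 17.01 to 17.35 on the normal, 17.45 to 17.54 on the TAC and 16.47 to 16.85 on the TAC-R arrays. Smooth muscle and pericyte markers ran the same way. Of 6, 1, Cnn1, rose from normal to TAC, and 3 were higher at an unadjusted p under 0.05 (median 0.70). Cnn1 lay below the negative control limit on all arrays, so the size of its difference is not measured. From TAC to TAC-R 0 of the 6 passed in limma and 5 were lower at an unadjusted p under 0.05 (median -1.05).

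Of 5 atrial markers, Myl7 rose from TAC to TAC-R (adjusted p = 0.00315), to 14.30 and 12.54 on the 2 TAC-R arrays from below the limit on the other 4. At an unadjusted p under 0.05, 4 of the 5 were higher and 1, Dkk3, lower in that comparison. Of the 4, Sln lay below the negative control limit on all arrays, and Myl4 exceeded it on 1 TAC-R array only. The sizes of the Sln and Myl4 differences are thus not measured. None of 5 endothelial and 6 macrophage markers passed in limma in either comparison. At an unadjusted p under 0.05, 3 endothelial and 2 macrophage markers were lower on the TAC-R than the TAC arrays. At that p, 0 endothelial and 2 macrophage markers were higher under TAC than in normal hearts. The macrophage list was split from TAC to TAC-R, with 4 means lower and 2 higher. The 2 higher ones, Cd163 and Adgre1, lay below the negative control limit on all arrays. The macrophage markers counted at that p, Cd68 and Csf1r both times, and the endothelial Tie1 also lay below this limit on all arrays. The sizes of their differences are thus not measured. The part of these shifts in the values of Ryr2, Camk2d, Slc8a1 and Casq1 was not tested.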

How the data were processed

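Whole-heart RNA of 3 groups of 2 arrays was compared. Per the labels, the deposited log2 values are the authors' RMA (robust multi-array averaging) output from Expression Console, summarised over core exons, with no version stated. Such averaging makes the arrays' distributions alike, so a shift of all transcripts cannot be seen. Medians per array were 5.31 to 5.39. Of 24834 rows, 1646 control rows were left out. A platform table gave 1 symbol to 15049 of the 23188 tested rows, several to 0 and none to 8139.

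limma 3.58.1 (R 4.3.3) modelled the 6 arrays with a mean for each group, 3 residual and 5.71 prior degrees of freedom. A row passed when its 2-sided p, adjusted over all tested rows by Benjamini-Hochberg, was under 0.05. The code was tested on simulated data. With 2 arrays against 2, an exact permutation test cannot go below p = 0.33. The arrays' number limits the precision. The negative control limit is the 95th percentile of 1153 negative rows on each array, and 8.18 over row means.

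The 10 genes and all lists were chosen with earlier results of these data known. Named were the 10 genes, set paralogs and partners, genes of the wider list that passed, and the 3 largest differences per comparison with a group above the limit. Of these, 1 gene is not reported here. Likeness was taken for the measured gene with the highest limma F, by Pearson correlation over the 6 arrays. Alternatives changed the moderation, the rows and groups fitted, the scaling, a replicate block and each array in turn.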

Additional observations from a re-analysis of the deposited data

How the results depend on the processing

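Of the 10 genes, 0 passed in every alternative but one: with an intensity trend 1, Ryr2, was lower on the TAC than the normal arrays. Of the wider list, 1 gene (Casq1) passed between TAC and normal with an intensity trend, with rows below the median left out, and with named rows above the negative controls only, an alternative chosen after seeing the data. Between TAC-R and TAC, 2 passed, but 1 with named rows above the negative controls only (where Cacna1g was not tested), and 0 with only the 2 groups compared, with control rows kept in, with a replicate block, or without any 1 array (lowest 0, highest 0). All rows called, 59, 100 and 21 in the order of the comparisons, ranged from 0 to 170, 4 to 344 and 0 to 156; with an intensity trend they were 170, 344 and 156, with the block 36, 47 and 11. Replicate numbers did not pair the arrays: deviations of same-numbered arrays correlated at 0.012, -0.0093 and -0.013. The block changed no call of the 10 genes. Signs turned for small differences. Casq2 (TAC-R minus normal) was 0.015 with median centring, and Casq1 (TAC-R minus normal) -0.025 with quantile normalization. Leaving out 1 array gave -0.076 to 0.009 for Casq2 (TAC-R minus normal), -0.093 to 0.019 for Trdn, -0.21 to 0.00105 for Hrc and -0.042 to 0.31 for S100a1 (TAC minus normal), and -0.25 to 0.10 for Hrc and -0.043 to 0.31 for S100a1 (TAC-R minus TAC). Without 1 array a group of 1 is assumed to vary like the others. Taking the mean of a gene's rows changes nothing, since each gene had 1 row. Signals at the ceiling limit Atp2a2 and Pln, and signals below the negative controls limit 19 genes of the wider list.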
